A study of Homo sapiens with 8 samples.

Results

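The genes described here encode the non-catalytic subunits of histone deacetylase (HDAC) corepressor complexes, followed in HCT116 cells treated with 3 HDAC inhibitors. The list held 39 genes of the NuRD, SIN3, CoREST, NCoR, MiDAC, MIER and CtBP complexes and no deacetylase. Members were found by exact match to probe sets annotated with 1 gene symbol. A gene was represented by the matching probe set with the highest mean over all arrays. In this way 36 members were found, out of 19775 genes named on the array. NCOR1, ARID4A and BRMS1L matched no such probe set and were not analysed here. HCT116 is an established human colorectal carcinoma line, and all values come from this 1 line.

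Cells were seeded at 400000 per well and exposed the next day for 10 h. Largazole and FK228 were each given at 20 nM, SAHA at 2 µM, and the last of the 4 groups had vehicle only. Each group had 2 arrays (8 in all) of an Affymetrix human expression design. The labels call them duplicates and say nothing of separate cultures, so p-values measure the spread between these arrays, which may be technical. Largazole is a cyclic depsipeptide whose zinc-binding thiol is masked as a thioester. FK228 (romidepsin) is a bicyclic depsipeptide whose thiol is masked in a disulfide, and SAHA (vorinostat) is a hydroxamic acid. The depsipeptides were compared at their shared dose. SAHA was given at another dose, and its values are set beside theirs without comparison.

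Class I deacetylases work mostly inside large complexes, in which scaffold subunits hold and activate the enzyme and reader or DNA-binding subunits place it on chromatin. NuRD joins deacetylase and nucleosome-remodelling activity, SIN3 carries the enzyme to promoters through sequence-specific repressors, and CoREST couples it to a histone demethylase. NCoR complexes hold HDAC3 and serve unliganded nuclear receptors. MiDAC and the MIER complexes are built on other scaffolds, and the CtBP proteins bridge DNA-bound repressors to several of these complexes.

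Values are log2 expression levels. A change is the difference between group means from limma, given with its standard error and with a p adjusted by the Benjamini-Hochberg method over all tested probe sets. A gene was called at an adjusted p under 0.05. Levels on this array can be compared between samples for 1 probe set, but not between genes. The arrays were alike in scale, with medians from 4.47 to 4.51. Correlations were 0.995 to 0.997 within groups and 0.975 to 0.984 between treated and vehicle arrays. Of 9 epithelial colorectal markers, 7 were above the detection filter in vehicle, among them EPCAM, KRT8, KRT18 and CDH1, while VIL1 and KRT20 were under it. None of 5 matched leukocyte markers reached the filter on enough arrays to be tested. Of 9 fibroblast and endothelial markers, 5 were tested; COL1A1 averaged 7.13 in vehicle, 8.40 with largazole, 7.85 with SAHA and 7.73 with FK228. COL1A2, COL3A1, LUM and CDH5 stayed below the filter. The part of these markers in the results below was not tested. In such bulk RNA, fewer cells expressing a gene and less RNA per cell cannot be told apart.

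All 36 members passed the filter on low values, and in all 4 groups their means were above it. With largazole, 10 members were called higher and 11 lower, against 45.2% of the 13373 genes tested that were called in either direction (21.9% higher and 23.2% lower). With SAHA, 11 were called higher and 11 lower, where 47.4% of all genes were called (22.1% and 25.2%). With FK228, 10 were called higher and 14 lower, where 52.8% of all genes were called (25.7% and 27.0%). In all, 58.3%, 61.1% and 66.7% of the members were called, above the shares of all genes, and the list as a whole was not tested. Without probe sets that can share sequence with other transcripts (names ending in _x_at or _s_at), this was not so: 10, 11 and 12 of the 24 members left were called, which is 41.7% with largazole and 45.8% with SAHA, beside 43.5%, 45.7% and, with FK228, 51.1% of all genes. The members' median change was -0.03 with largazole, -0.07 with SAHA and 0.01 with FK228, beside 0.00, -0.02 and 0.01 over all genes. These 3 comparisons share the vehicle arrays.

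The subunits moved in opposite directions within the list. Called higher with each of the 3 inhibitors were 8 members, namely GPS2, SAP30L, SAP18, SAP130, BRMS1, ING1, HMG20B and DNTTIP1 (8 of 36, where 17.6% of all tested genes had this pattern). Called lower with each were 10, namely MTA1, MTA2, MTA3, MBD3, TBL1X, TBL1XR1, PHF21A, MIER3, CTBP1 and CTBP2 (20.0% of all tested genes). Another 9 were called with none on the representative probe set (39.2% of all tested genes). They were SIN3B, RCOR1, RCOR3, RBBP7, MBD2, KDM1A, SUDS3, ARID4B and MIER2. The remaining 9 were called with 1 or 2 of the inhibitors. Without regard to a test, both largazole arrays lay above both vehicle arrays for 14 members (37.0% of all genes tested) and below them for 17 (37.4%), with 74.4% of all genes not overlapping in either direction. The same counts were 14 and 16 with SAHA (34.6% and 38.4% of all genes, 73.0% in all) and 16 and 15 with FK228 (38.2% and 38.0%, 76.2% in all).

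**Figure D1:**
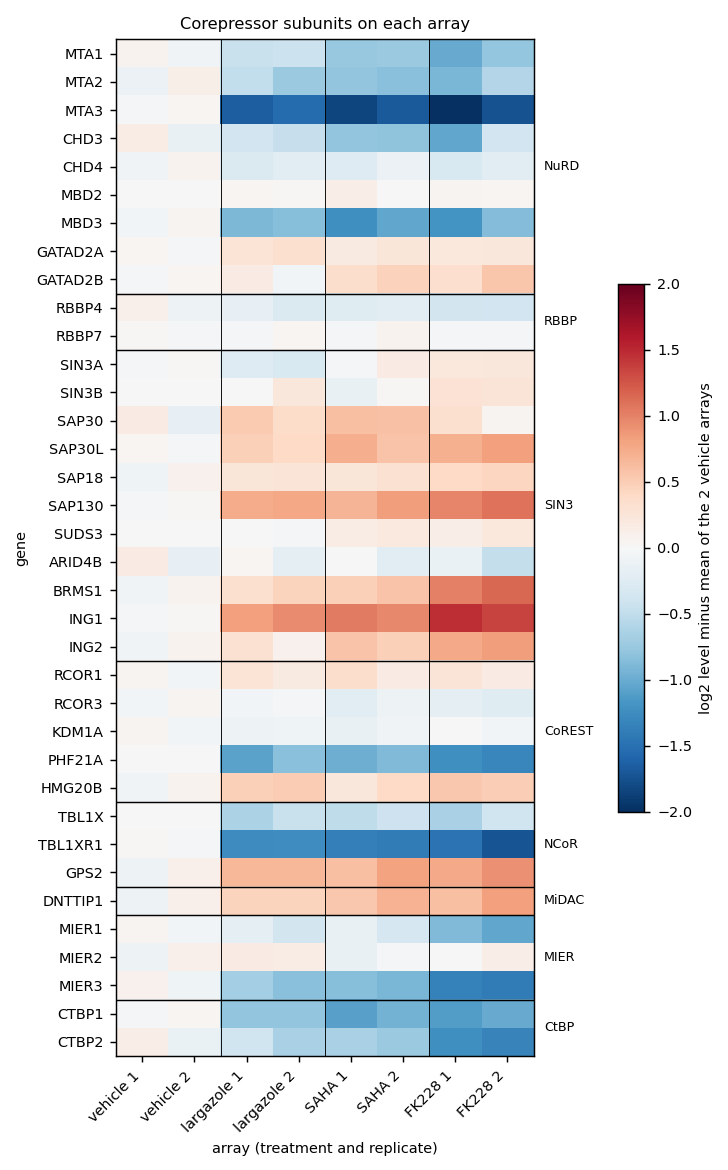
Level of each of the 36 subunits on each of the 8 arrays, drawn as the log2 level minus the mean of the 2 vehicle arrays (red higher, blue lower) and ordered by complex; RBBP marks the histone chaperones shared by NuRD and SIN3. The blue rows of MTA3, MBD3, TBL1XR1, PHF21A and MIER3 and the red rows of ING1, SAP130 and GPS2 run across all 6 treated arrays.

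Because called-higher and called-lower subunits held 1 short motif at different shares, promoters of both kinds are printed here. Sequences are the 250 bases before the first listed start of each gene, from RefSeq (GRCh38.p14), written 5′ to 3′ on the gene's strand, which stands in brackets. Capitals mark the letters CGGAAG, the core recognised by ETS factors, or its reverse complement. The first 4 genes were called higher with all 3 inhibitors and the last 2 lower. Among those not printed, HMG20B (called higher) held none of these letters, and MTA2 (called lower) held them.
GPS2 chr17:7315361-7315610 (-): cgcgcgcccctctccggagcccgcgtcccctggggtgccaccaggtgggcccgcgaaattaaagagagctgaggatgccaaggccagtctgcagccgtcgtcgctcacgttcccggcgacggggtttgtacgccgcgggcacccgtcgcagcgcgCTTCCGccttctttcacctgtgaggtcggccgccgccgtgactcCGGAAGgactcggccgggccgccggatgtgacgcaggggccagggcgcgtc
SAP130 chr2:128028060-128028309 (-): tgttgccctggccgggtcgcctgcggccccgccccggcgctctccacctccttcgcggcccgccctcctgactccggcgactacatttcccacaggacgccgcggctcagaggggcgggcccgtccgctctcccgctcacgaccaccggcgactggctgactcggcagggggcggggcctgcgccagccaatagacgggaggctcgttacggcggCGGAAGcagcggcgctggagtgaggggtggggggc
BRMS1 chr11:66345105-66345354 (-): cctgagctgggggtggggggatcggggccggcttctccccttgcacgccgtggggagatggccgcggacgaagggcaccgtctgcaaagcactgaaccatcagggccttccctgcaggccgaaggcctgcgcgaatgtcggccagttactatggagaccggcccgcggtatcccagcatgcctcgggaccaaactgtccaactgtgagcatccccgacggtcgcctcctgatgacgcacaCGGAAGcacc
ING1 chr13:110712373-110712622 (+): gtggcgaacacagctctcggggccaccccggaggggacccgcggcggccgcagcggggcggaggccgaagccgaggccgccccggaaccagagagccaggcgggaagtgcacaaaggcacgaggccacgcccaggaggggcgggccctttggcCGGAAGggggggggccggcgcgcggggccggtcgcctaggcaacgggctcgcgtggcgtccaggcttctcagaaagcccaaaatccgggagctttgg
MTA3 chr2:42493860-42494109 (+): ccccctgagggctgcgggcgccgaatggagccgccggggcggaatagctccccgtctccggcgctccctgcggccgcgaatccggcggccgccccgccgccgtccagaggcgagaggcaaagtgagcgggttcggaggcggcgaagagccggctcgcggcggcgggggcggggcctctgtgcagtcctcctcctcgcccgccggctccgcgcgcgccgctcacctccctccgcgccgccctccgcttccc
TBL1XR1 chr3:177197483-177197732 (-): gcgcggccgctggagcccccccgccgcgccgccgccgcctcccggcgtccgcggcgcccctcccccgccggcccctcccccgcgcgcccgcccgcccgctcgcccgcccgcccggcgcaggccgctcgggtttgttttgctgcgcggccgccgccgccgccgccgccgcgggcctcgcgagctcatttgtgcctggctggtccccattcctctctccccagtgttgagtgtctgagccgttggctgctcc
The letters began 95 and 51 bases before the start in GPS2, 35 in SAP130, 10 in BRMS1 and 97 in ING1. Neither MTA3 nor TBL1XR1 held them in the printed stretch. G and C made up 79.2% of the printed bases in MTA3 and 81.2% in TBL1XR1, and from 66.4% (BRMS1) to 75.2% (SAP130) in the other 4.

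NuRD, the complex built on the MTA scaffolds and the CHD3 and CHD4 remodelling ATPases, had more subunits called lower than higher. Of its 9 measured subunits, 1 was called higher and 4 lower with largazole, 1 and 5 with SAHA, and 1 and 6 with FK228, where 23.2%, 25.2% and 27.0% of all genes were called lower. Median changes were -0.42, -0.75 and -0.71. On their representative probe sets, the 3 MTA paralogs and MBD3 were called lower with every inhibitor. MBD2, the methyl-CpG-binding alternative to MBD3, changed by 0.03, 0.06 and 0.05 and was not called.

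MTA3, a scaffold subunit that binds the deacetylase, had levels of 7.54 and 7.61 in vehicle, 5.93 and 6.03 with largazole, 5.73 and 5.89 with SAHA, and 5.50 and 5.83 with FK228. All 6 treated arrays lay far below both vehicle arrays. The change was -1.59 ± 0.123 with largazole (adjusted p = 6.03e-05), -1.76 ± 0.123 with SAHA (3.47e-05) and -1.91 ± 0.123 with FK228 (1.47e-05), which for FK228 is 3.75-fold lower. The size depended on the probe set: averaged over the gene's probe sets it was -0.97, -1.13 and -1.33. The other probe set alone gave -0.35, -0.50 and -0.75, and with largazole it was not called (adjusted p = 0.0703).

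MBD3, which ties the remodelling and deacetylase modules of NuRD together, read 9.15 and 9.25 in vehicle. It read 8.29 and 8.34 with largazole, 7.96 and 8.16 with SAHA, and 8.01 and 8.32 with FK228. Vehicle and treated arrays did not overlap, while FK228 and largazole arrays overlapped each other. The changes were -0.88 ± 0.125 (adjusted p = 0.00101), -1.13 ± 0.125 (0.000262) and -1.03 ± 0.125 (0.000303). Averaged over its probe sets they were -0.47, -0.65 and -0.51. The other probe sets of MBD3 gave -0.325, -0.52 and -0.19, and -0.215, -0.28 and -0.31. Of these values only -0.52, with SAHA, was called in limma (adjusted p = 0.0101).

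MTA1 and MTA2, the other scaffold paralogs, were lower to a smaller degree. MTA1 changed by -0.44, -0.75 and -0.89 with largazole, SAHA and FK228, and MTA2 by -0.62, -0.81 and -0.75. Over both probe sets of MTA1 the mean with FK228 was -0.52, and its second probe set alone gave -0.14, not called (adjusted p = 0.409). CHD3 changed by -0.42, -0.80 and -0.71 and was called lower with SAHA (adjusted p = 0.014) and FK228 (0.0207), not with largazole (0.142). Its paralog CHD4 moved less, by -0.26, -0.19 and -0.27, and was called with FK228 alone (adjusted p = 0.0445). GATAD2A and GATAD2B, which link MBD proteins to the remodeller, went the other way. GATAD2A changed by 0.29, 0.21 and 0.22 and was called with largazole (adjusted p = 0.0195). GATAD2B changed by 0.05, 0.41 and 0.45 and was called with SAHA (0.0228) and FK228 (0.0129).

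Several of these NuRD calls were lost when 1 array was left out, in fits where an arm of 1 array takes its spread from the other groups. The change with largazole was then -0.42 to -0.37 for MTA1 and 0.26 to 0.32 for GATAD2A, close to the full values. With largazole, the call of MTA1 was lost without replicate 1 of either largazole or vehicle (adjusted p 0.0567 to 0.0659), that of MTA2 without replicate 2 of either group (0.0696 to 0.0709), and that of GATAD2A without either largazole array or vehicle replicate 2 (0.0697 to 0.106). CHD3 lost its SAHA call without either SAHA array or vehicle replicate 1 (0.0557 to 0.0873) and its FK228 call without FK228 replicate 1 or vehicle replicate 1 (0.0728 to 0.122). Leaving out FK228 replicate 1 or vehicle replicate 1 moved the FK228 value of CHD3 to between -0.56 and -0.38. CHD4 lost its call without any 1 of the FK228, largazole or vehicle arrays (0.0515 to 0.212). GATAD2B lost its SAHA call without SAHA replicate 2 or either vehicle array (0.0638 to 0.108), and its FK228 call without FK228 replicate 2 or vehicle replicate 1 (0.0683 to 0.0762). The mean over probe sets also ended the FK228 call of GATAD2B, at 0.21 (0.0823).

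RBBP4 and RBBP7, the histone-binding chaperones that NuRD and SIN3 share, stayed close to vehicle on their representative probe sets. RBBP7 changed by 0.01, 0.02 and -0.03, with intervals that reached no further than 0.22 from 0. RBBP4 changed by -0.23, -0.24 and -0.37 and was called lower with FK228 (adjusted p = 0.0142). That call was lost without FK228 replicate 2 or vehicle replicate 1, where the change was -0.36 to -0.265. The mean of RBBP4 over probe sets was -0.05 with FK228 (adjusted p = 0.533 in limma) and -0.235 with largazole (0.0193). Other RBBP4 probe sets were called lower with largazole, at -0.55 (0.00341) and -0.26 (0.0403). The second of these was also called lower with SAHA, at -0.25 (0.0451). The rest were not called against vehicle.

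SIN3 had more subunits called higher than lower. Of its 11 measured subunits, 6 were called higher and 1 lower with largazole, 7 and 0 with SAHA, and 6 and 0 with FK228, where 21.9%, 22.1% and 25.7% of all genes were called higher. The list of subunits was not tested as a set. No SIN3 subunit had a limma interval wholly below 0 with SAHA or FK228, that is an unadjusted p under 0.05 in that direction. Median changes were 0.26, 0.53 and 0.41. On their representative probe sets the scaffolds themselves moved little: SIN3B changed by 0.11, -0.06 and 0.28 and was not called. The other tested probe set of SIN3B gave 0.148, -0.122 and 0.475. It was called higher in limma with FK228 (adjusted p = 0.0189). SIN3A changed by -0.28 with largazole (adjusted p = 0.0383), 0.07 with SAHA and 0.22 with FK228 (0.0779). That largazole call of SIN3A was lost without any 1 of the largazole, FK228 or vehicle arrays (adjusted p 0.0526 to 0.165).

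ING1, a plant homeodomain protein that reads methylated histone H3, read 8.94 and 8.98 in vehicle. It read 9.78 and 9.90 with largazole, 10.01 and 9.92 with SAHA, and 10.43 and 10.32 with FK228. Every treated array lay above vehicle, and both FK228 arrays lay above both largazole arrays. ING1 rose by 0.88 ± 0.089 with largazole (adjusted p = 0.000198), by 1.00 ± 0.089 with SAHA (9.53e-05) and by 1.41 ± 0.089 with FK228 (1.3e-05), the last a 2.66-fold difference.

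ING2, its paralog and fellow histone reader, had levels of 7.62 and 7.75 in vehicle, 7.98 and 7.76 with largazole, 8.26 and 8.16 with SAHA, and 8.44 and 8.52 with FK228. The lower largazole array almost touched the higher vehicle array, whereas SAHA and FK228 arrays stood clear of both. The change was 0.19 ± 0.104 with largazole (adjusted p = 0.186), 0.53 ± 0.104 with SAHA (0.00435) and 0.80 ± 0.104 with FK228 (0.000443).

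SAP130, a subunit that helps assemble the SIN3 complex, measured 8.77 and 8.82 in vehicle, 9.53 and 9.56 with largazole, 9.47 and 9.63 with SAHA, and 9.76 and 9.87 with FK228. The treated arrays did not overlap vehicle. SAP130 rose by 0.75 ± 0.091 with largazole (adjusted p = 0.00047), 0.76 ± 0.091 with SAHA (0.000383) and 1.03 ± 0.091 with FK228 (6.2e-05).

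BRMS1, a breast cancer metastasis suppressor and SIN3 subunit, had 8.60 and 8.74 in vehicle, 8.99 and 9.11 with largazole, 9.15 and 9.24 with SAHA, and 9.68 and 9.81 with FK228. No treated array overlapped vehicle, and both FK228 arrays lay above both largazole arrays. The change was 0.38 ± 0.098 with largazole (adjusted p = 0.016), 0.53 ± 0.098 with SAHA (0.00339) and 1.08 ± 0.098 with FK228 (7.06e-05). The largazole call of BRMS1 was lost without largazole replicate 2 or vehicle replicate 1 (0.0954 to 0.101).

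Among the smaller SIN3-associated proteins, SAP30L changed by 0.44, 0.65 and 0.77 and its paralog SAP30, which binds nuclear receptor corepressors and SIN3, by 0.44, 0.59 and 0.19. On its representative probe set SAP30 was called with largazole (adjusted p = 0.034) and SAHA (0.00929), not with FK228 (0.294). The other tested probe sets of SAP30 were called higher in limma with FK228, at 0.54 (adjusted p = 0.00766) and 0.29 (0.024). Neither was called with largazole (0.32 and -0.07). SAP18, which also belongs to an RNA-processing complex, changed by 0.26, 0.27 and 0.41. The mean over the 3 probe sets of SAP18 was larger, at 0.48, 0.47 and 0.65, and both other probe sets were called higher with each inhibitor. SUDS3, a dimerising SIN3 subunit, and ARID4B, a DNA-binding one, were not called, with changes between -0.31 and 0.18. The largazole call of SAP30L was lost in the mean over its 6 probe sets, at 0.15 (adjusted p = 0.156), where its SAHA and FK228 values were 0.30 and 0.45. That mean takes in probe sets below the filter. SAP30 lost its largazole call without either largazole array or vehicle replicate 2 (0.064 to 0.194) and its SAHA call without vehicle replicate 2 (0.0595). SAP18 lost its largazole and SAHA calls without any 1 of 7 arrays, that is all but vehicle replicate 2 (0.0514 to 0.242). The mean over probe sets ended the largazole calls of SIN3A, GATAD2A and SAP30 as well, each time with probe sets below the filter in it. Without vehicle replicate 2, largazole replicate 1 or largazole replicate 2 the value of SAP30 ran from 0.28 to 0.52.

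**Figure D2:**
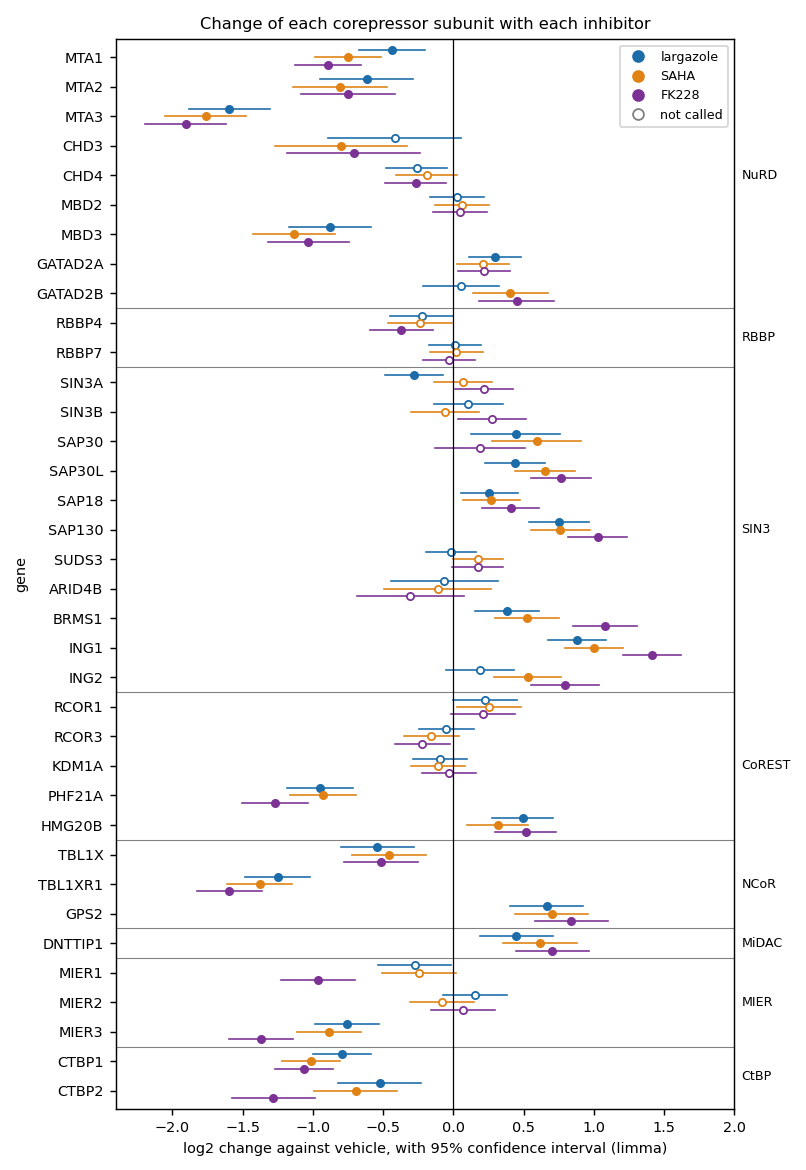
Change of each subunit against vehicle on the log2 scale with its 95% confidence interval from limma, for largazole (blue), SAHA (orange) and FK228 (purple); filled points were called at an adjusted p under 0.05. MTA3 and TBL1XR1 show the largest decreases with each inhibitor and ING1 the largest increase.

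CoREST was split. KDM1A, the lysine demethylase at its centre, changed by -0.10, -0.11 and -0.03 and was not called. Its scaffolds RCOR1 (0.23, 0.26 and 0.21) and RCOR3 (-0.05, -0.16 and -0.22) were not called either on their representative probe sets. HMG20B, a DNA-bending subunit, rose by 0.49, 0.32 and 0.51; its SAHA call was lost when SAHA replicate 2 or vehicle replicate 1 was left out, at an adjusted p of 0.137 to 0.143. Another of its probe sets, the highest without shared-sequence suffixes, averaged 4.30 in vehicle, under the filter value of 4.49. It gave 0.19, 0.14 and 0.23 and was not called (adjusted p 0.322 to 0.571). A further HMG20B probe set, at 7.245 in vehicle, gave 0.53, 0.57 and 0.65. It was called higher in limma with each inhibitor (adjusted p = 0.0389, 0.0274 and 0.0147).

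PHF21A, a reader of unmethylated histone H3 in CoREST, was the CoREST subunit called lower on its representative probe set. It read 8.39 and 8.40 in vehicle, 7.33 and 7.56 with largazole, 7.42 and 7.52 with SAHA, and 7.17 and 7.09 with FK228. Treated arrays all lay well below vehicle, and FK228 arrays below largazole arrays. The change was -0.95 ± 0.101 (adjusted p = 0.000255), -0.93 ± 0.101 (0.000249) and -1.27 ± 0.101 (3.79e-05). The mean over 4 probe sets, which takes in a probe set below the filter, was -0.40, -0.35 and -0.60. A probe set without shared-sequence suffix gave -0.05, -0.15 and -0.21, not called with any inhibitor (adjusted p 0.162 to 0.751). Another without such a suffix gave -0.60, -0.40 and -0.96. It was called lower in limma with each inhibitor (adjusted p = 0.00932, 0.0461 and 0.000684).

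Among the NCoR subunits, TBL1X and TBL1XR1, paralogous proteins that exchange corepressors for coactivators at nuclear receptors, both fell, and GPS2, which joins the same core, rose. TBL1XR1 read 11.23 and 11.18 in vehicle, 9.94 and 9.97 with largazole, 9.84 and 9.80 with SAHA, and 9.73 and 9.48 with FK228. No treated array came near vehicle. The change was -1.25 ± 0.10 (adjusted p = 6.81e-05), -1.38 ± 0.10 (4.03e-05) and -1.59 ± 0.10 (1.28e-05), or 3.02-fold lower with FK228. TBL1X changed by -0.54, -0.46 and -0.52; its largazole call was lost without largazole replicate 1 (0.0502) and its SAHA call without SAHA replicate 1 or either vehicle array (0.0506 to 0.0658).

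GPS2 had levels of 8.59 and 8.80 in vehicle, 9.35 and 9.36 with largazole, 9.29 and 9.49 with SAHA, and 9.46 and 9.61 with FK228. All treated arrays lay above vehicle. GPS2 rose by 0.66 ± 0.111 with largazole (adjusted p = 0.0023), 0.70 ± 0.111 with SAHA (0.00158) and 0.84 ± 0.111 with FK228 (0.000491). It was measured by only 1 probe set, with a name ending in _s_at, as were the called members SAP130, BRMS1 and MTA2.

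DNTTIP1, the dimeric scaffold of the mitotic deacetylase complex MiDAC, rose by 0.45, 0.61 and 0.70. Its largazole call was lost without vehicle replicate 1 or either largazole array (adjusted p 0.0651 to 0.0924) and on a probe set without shared-sequence suffix (0.28, 0.0845).

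The MIER proteins, ELM2-SANT scaffolds that recruit deacetylase, differed from each other. MIER3 read 8.31 and 8.15 in vehicle, 7.55 and 7.38 with largazole, 7.38 and 7.31 with SAHA, and 6.88 and 6.83 with FK228. All treated arrays were below vehicle, and both FK228 arrays lay below both largazole arrays. The change was -0.76 ± 0.098 (adjusted p = 0.000624), -0.89 ± 0.098 (0.000265) and -1.37 ± 0.098 (2.17e-05). Averaged over 5 probe sets, some of them below the filter, it was -0.45, -0.43 and -0.90. The other tested probe sets of MIER3 gave -0.67, -0.35 and -1.06, and -0.93, -0.84 and -1.45, each called lower.

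MIER1 read 8.19 and 8.07 in vehicle, 7.95 and 7.76 with largazole, 7.98 and 7.80 with SAHA, and 7.25 and 7.09 with FK228. Largazole and SAHA arrays lay just below vehicle, and the FK228 arrays lay well below vehicle and largazole arrays. The change was -0.28 ± 0.113 with largazole (adjusted p = 0.0878), -0.24 ± 0.113 with SAHA (0.12) and -0.96 ± 0.113 with FK228 (0.000254). Over its 3 probe sets, which take in a probe set below the filter, the mean with FK228 was -0.41. MIER2 changed by 0.15, -0.08 and 0.07 on its representative probe set and was not called. Its other tested probe set gave -0.04, -0.20 and -0.33. That one was called lower in limma with FK228 (adjusted p = 0.0116).

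CTBP1 and CTBP2, dehydrogenase-like proteins that bridge DNA-bound repressors to corepressor enzymes, were called lower with all 3 inhibitors. CTBP2 read 11.56 and 11.29 in vehicle, 11.03 and 10.77 with largazole, 10.78 and 10.68 with SAHA, and 10.20 and 10.08 with FK228. Vehicle and treated arrays did not overlap, and FK228 arrays lay below largazole arrays. The change was -0.52 ± 0.127 (adjusted p = 0.0127), -0.70 ± 0.127 (0.00309) and -1.28 ± 0.127 (0.000108). The largazole call of CTBP2 was lost without largazole replicate 2 or vehicle replicate 1 (0.0803 to 0.087). CTBP1 changed by -0.79, -1.01 and -1.06. Over its 4 probe sets the mean was -0.60, -0.73 and -0.90, but the probe set of CTBP1 without shared-sequence suffix gave -0.04, 0.14 and -0.14, which turned the direction with SAHA, and was not called (adjusted p 0.397 to 0.82). That probe set averaged 5.12 in vehicle, and the other 3, at 9.76 to 10.51, were each called lower with every inhibitor.

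Probe sets other than the representative one were read as a further description of the members. Of 58 such tested probe sets, 41 belonged to members called with largazole; 25 of these were called in the same direction, none in the opposite direction and 16 were not called. The corresponding numbers were 29, 0 and 9 of 38 with SAHA, and 27, 0 and 17 of 44 with FK228. Averages over a gene's probe sets, here and above, took in those below the filter on low values. They also added calls: RCOR3 was then called lower with each inhibitor (adjusted p = 0.0032, 0.0108 and 0.00102). CHD3 (0.0041), CHD4 (0.0256) and RBBP4 (0.0193) were then called lower with largazole. SIN3A (0.00752), RCOR1 (0.0208) and SAP30 (0.0345) were then called higher with FK228. In FK228 against largazole, MTA3 (0.0377) and CTBP1 (0.0302) were then called lower.

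At the matched dose of 20 nM, the depsipeptides FK228 and largazole were compared directly over the 36 members. FK228 was higher for 4 members (BRMS1, ING2, ING1 and SIN3A) and lower for 4 (MTA1, MIER3, MIER1 and CTBP2), against 9.06% of all genes called (4.19% higher and 4.88% lower). These 8 are 22.2% of the members. The 4 higher members all belong to SIN3. BRMS1 was higher with FK228 by 0.69 ± 0.098 (adjusted p = 0.0101), ING2 by 0.60 ± 0.104 (0.0169), ING1 by 0.53 ± 0.089 (0.0158) and SIN3A by 0.50 ± 0.089 (0.019). CTBP2 differed by -0.76 ± 0.127 (0.0158), MIER1 by -0.69 ± 0.113 (0.015), MIER3 by -0.61 ± 0.098 (0.0138) and MTA1 by -0.46 ± 0.101 (0.0358). For each of these 8 the FK228 arrays did not overlap the largazole arrays. Over all 36, FK228 arrays lay above largazole arrays for 14 members and below for 13 (29.0% and 29.5% of all genes, 58.5% in all).

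SIN3A, the scaffold that holds the SIN3 complex together, had largazole and FK228 arrays on opposite sides of vehicle. It read 8.30 and 8.35 in vehicle, 8.07 and 8.02 with largazole, 8.30 and 8.48 with SAHA, and 8.53 and 8.55 with FK228. Largazole arrays lay below vehicle and FK228 arrays above it. On 2 other tested probe sets of SIN3A the largazole change was -0.04 and 0.03, not called, and the FK228 change was 0.48 (adjusted p = 0.00169) and 0.55 (0.0238).

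None of the 8 calls between the depsipeptides held in every fit that left out 1 array. In the fits that lost a call, the differences kept their direction. BRMS1 ran from 0.64 to 0.75, ING2 from 0.496 to 0.715, ING1 from 0.47 to 0.59 and SIN3A from 0.47 to 0.53. CTBP2 ran from -0.82 to -0.63, MIER1 from -0.78 to -0.59, MIER3 from -0.695 to -0.53 and MTA1 from -0.47 to -0.34. An arm of 1 array takes its spread from the other groups. Each call was lost when at least 1 largazole array was left out, with adjusted p over all 8 losses from 0.0504 to 0.166. Without largazole replicate 1 limma called no member (12 at an unadjusted p under 0.05), without largazole replicate 2 only 1, while 2 were called without FK228 replicate 1 and 3 without FK228 replicate 2. BRMS1 was lost without either largazole array (0.0531 to 0.086), and MTA1 without any array but FK228 replicate 2 (0.0504 to 0.166). CTBP2 was lost without either FK228 array or largazole replicate 1 (0.053 to 0.111), ING1 without either largazole array or FK228 replicate 1 (0.067 to 0.122), and MIER1 without either largazole array or FK228 replicate 2 (0.0556 to 0.111). ING2 (0.057 to 0.0997), MIER3 (0.0547 to 0.109) and SIN3A (0.0712 to 0.111) were each lost without any 1 of the 4 depsipeptide arrays. Averaged over probe sets, the difference was -0.07 for MTA1 (0.594), -0.28 for MIER1 (0.0407) and -0.32 for CTBP2 (0.0189). With 2 arrays against 2, an exact permutation test of a single gene cannot go below a 2-sided p of 0.333.

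For the other 28 members no difference between the depsipeptides was called on the representative probe set. The intervals bound how large it could be on that probe set only. Their 95% confidence intervals reached 0.18 to 0.47 to each side of the estimate, with a median of 0.23. In 19 of the 28 the whole interval lay within 0.5 of 0 on the log2 scale. MBD2 (0.02, interval -0.17 to 0.21), RBBP7 (-0.04, -0.23 to 0.15) and CHD4 (-0.01, -0.23 to 0.21) were among these. For GPS2 the difference was 0.18 (-0.08 to 0.43). CHD3 had the widest interval, from -0.76 to 0.18. MTA3 differed by -0.31 (adjusted p = 0.163), TBL1XR1 by -0.34 (0.0789) and SAP30L by 0.33 (0.072), none of them called. Other probe sets were called lower in limma for TBL1XR1 (-0.935, adjusted p = 0.0115) and CTBP1 (-0.492, 0.0147). Others were called higher for SAP30L (0.555, 0.0225), RBBP4 (0.521, 0.0235), TBL1X (0.419, 0.0381) and SAP30 (0.356, 0.0447). All remaining tested probe sets of the 28 were not called.

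**Figure D3:**
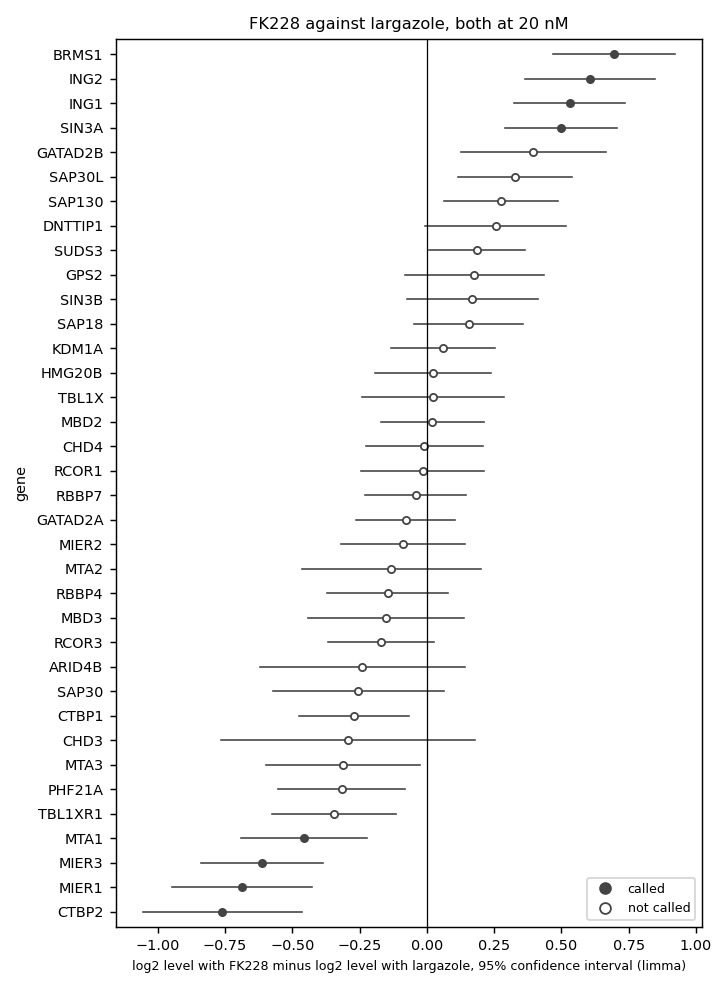
Difference between FK228 and largazole, both at 20 nM, for each of the 36 subunits on the log2 scale with its 95% confidence interval from limma; filled points were called. BRMS1, ING2, ING1 and SIN3A stand at the top and MTA1, MIER3, MIER1 and CTBP2 at the bottom, between -0.76 and 0.69.

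The deacetylases that these subunits hold were read beside them. HDAC1 changed by 0.18, 0.12 and 0.16 with largazole, SAHA and FK228 and HDAC2 by 0.06, 0.02 and -0.18, none of them called. HDAC3, the enzyme of the NCoR complexes, rose by 0.50, 0.69 and 0.72. For the lists that follow, the share of all genes called was 45.2%, 47.4% and 52.8% with the 3 inhibitors and 9.06% between the depsipeptides. Of 17 further subunits and partners, 15 were tested: 1 was called higher and 5 lower with largazole, 1 and 8 with SAHA, 1 and 8 with FK228, and 0 and 3 in FK228 against largazole. CORO2A, an NCoR-associated protein, rose by 0.95, 0.83 and 0.99. TRERF1, the MiDAC subunit related to MIDEAS, changed by -1.55, -1.56 and -2.27. Of 24 repressors that recruit the complexes, 20 were tested: 10 were called higher and 4 lower with largazole, 10 and 4 with SAHA, 7 and 3 with FK228, and 3 and 1 between the depsipeptides. SNAI2, a zinc finger repressor, averaged 3.38 in vehicle, under the filter on low values, so no fold is given; it was called higher with each inhibitor, at mean levels of 7.33, 7.02 and 7.35. CBFA2T3, an NCoR-binding corepressor, changed by -1.69, -1.66 and -1.75.

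Promoters were described for the 35 members that the RefSeq table held; SAP18 was not in it. The window ran from 250 bases before to 50 after the first listed start, and motifs were counted on both strands. Members' promoters had a median of 70.33% G and C, beside 65.33% over the tested genes with a promoter. The 7 letter patterns searched were the GC box GGGCGG, the CCAAT box CCAAT, the E box CACGTG, the NRF1 core GCATGC, the ETS core CGGAAG, the TATA box TATAAA and the YY1 core ATGGCG. None of these patterns is contained in another, but matches can overlap at their ends.

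The ETS letters were the pattern on which the subunits differed most. They stood in 6 of the 7 promoters of members called higher with all 3 inhibitors (85.7%), HMG20B being the exception. They stood in 1 of 10 promoters of members called lower with all 3 (10.0%), that of MTA2, and in 2 of 9 of those not called. Over all tested genes the share was 31.3%, and it was 32.3% among the 1914 genes called higher with all 3 inhibitors and 30.2% among the 2219 called lower. In SAP30L the letters began 39 bases before the start, in DNTTIP1 44, and MTA2 held them on both strands, 51 and 47 bases before it. The comparison is a description of these few promoters, chosen after the counts were seen, with no test, and a match is not a bound site.

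**Figure D4:**
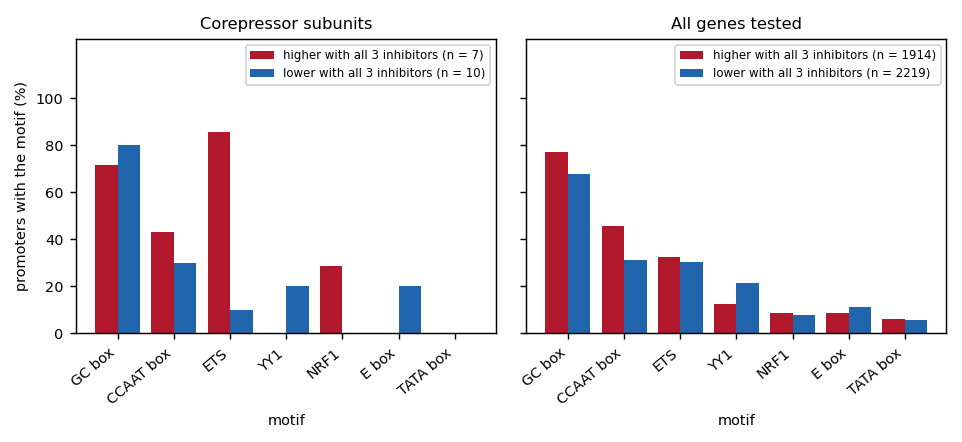
Share of promoters (from 250 bases before to 50 after the first start, both strands) that hold each of 7 motifs, for corepressor subunits (left) and all tested genes (right) called higher (red) or lower (blue) with all 3 inhibitors. The ETS bars stand at 85.7% and 10.0% among the subunits and at 32.3% and 30.2% among all tested genes.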

How the data were processed

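Total RNA of HCT116 cells was hybridised to 8 Affymetrix human arrays. The deposited values are log2 expression levels made by the authors, with affy, RMA and limma named per the submitters' processing notes; their versions and the order of steps are not given in the sources used here. All levels were used as deposited, from 1.71 to 14.67. Of 54613 probe sets, 41091 carried 1 gene symbol in the platform annotation, 1801 several and 11721 none. Tested were the 28985 probe sets with at least 2 of 8 arrays at or above 4.49, the median of the whole table.

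Groups were compared with limma 3.58.1 in R 4.3.3 (1 coefficient per group, all 8 arrays, residual degrees of freedom 4, prior 3.69), with Benjamini-Hochberg adjustment over the tested probe sets. Counts over all genes use the probe set with the highest mean per gene. Tables were handled in Python 3.11.15 with pandas 2.3.3. The fit was run on simulated arrays with known changes put into few probe sets, as a check of the code. Far more genes were called here, so the calls above were not tested by it. Each level rests on 2 arrays, and their number limits the precision.

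Per-array values are given for the 3 highest and 3 lowest called changes with each inhibitor, the 3 highest and 3 lowest called differences of FK228 from largazole, and paralogs called in opposite directions, of which there were none; those of SIN3A were added after seeing its values. Alternatives were the probe-set choice, the filter, quantile and ribosomal-protein scaling, array weights, a trended robust fit, the replicate number as a block, and each array left out. Probe sets whose names end in _s_at or _x_at can share sequence with other transcripts. Protein sequences were not used here. The members and lists were chosen with earlier results of these data known.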

Additional observations from a re-analysis of the deposited data

Results flagged for a closer look

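Probe sets other than those that stand for a gene gave larger changes for 2 subunits, in comparisons where the representative probe set was not called. A second RCOR3 probe set fell by 1.16 with largazole (SE 0.197, adjusted p = 0.00243 in limma), from a mean level of 6.07 in vehicle to 4.91, where the representative one changed by -0.05. With FK228 the same RCOR3 probe set changed by -1.211 to 4.86 (adjusted p = 0.00144), beside -0.22. The remaining RCOR3 probe set gave -0.11 with largazole and -0.13 with FK228 and was not called. A second CHD3 probe set changed by -1.036 with largazole (SE 0.334, adjusted p = 0.0398), from 5.74 to 4.71, beside -0.42.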

How the results depend on the processing

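With 2 arrays a group, many calls near the threshold were lost when 1 array was left out, at times an array outside the comparison. Some changes hardly moved (SIN3A with largazole, -0.31 to -0.26). Others shrank (CHD3 with FK228, from -0.71 to between -0.56 and -0.38). The number of members called against vehicle was 21 with largazole, 22 with SAHA and 24 with FK228, and 8 between FK228 and largazole. Leaving out 1 array at a time gave 13 to 20 with largazole, 17 to 21 with SAHA, 20 to 24 with FK228 and 0 to 7 between the depsipeptides. Calls that held under every alternative run in which the member was tested were 6 of 21, 14 of 22, 17 of 24 and 0 of 8. Among these, GPS2, SAP130, MTA1, MTA2, BRMS1, ING2 and TBL1X had no tested probe set without an _x_at or _s_at name. Their calls could not be lost in the run without such probe sets. Leaving out _x_at and _s_at probe sets left 24 members and 10, 11 and 12 called, and turned CTBP1 with SAHA to 0.138. The stricter filter gave 13 called between the depsipeptides. Over all genes that comparison called 1212, but 562 without the filter, 623 in a fit of only the 4 arrays compared, 1917 with the stricter filter, 1862 with the replicate block, 2023 with the trended robust fit, and as few as 99 without 1 array. Over the members' other changes, 2331 of 2528 alternative values kept their side of the threshold, 131 fell below it and 65 passed it. The remaining 1, CTBP1 with SAHA, lost its call with its direction turned. Among values called neither before nor after, a turn of direction was not counted. No scaling moved the median of all genes by over 0.1.

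Arrays share replicate numbers across groups, and same-numbered arrays deviated together (r 0.128 to 0.268 over 6 pairs of groups), but with 2 numbers this does not show a pairing. With the replicate block, 24, 25, 29 and 8 members were called. The block added RCOR1 with each inhibitor (adjusted p 0.0369, 0.0224 and 0.0404), GATAD2A with SAHA (0.0478) and FK228 (0.0412), MIER1 with largazole (0.016) and SAHA (0.0236), CHD4 with largazole (0.0216), and SIN3B (0.045), RCOR3 (0.0442) and ARID4B (0.0128) with FK228, and it ended no call against vehicle. Depth does not apply to arrays; levels near the filter, such as MTA2's, have little signal over background.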
